A study of Mus musculus with 577 samples.

Results

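Collagen chains and laminin chains were examined across mouse granulosa cells, oocytes and embryonic stem cells (mESCs). Members were the protein-coding genes whose symbol is that of a collagen chain (Col, a type number, a and a chain number) or of a laminin chain (Lama, Lamb or Lamc and a number). The rule used no measured value. It found 55 genes, 44 of collagen and 11 of laminin, among the 22060 protein-coding genes of the tables, and all 55 were present in each table. The study tested a way to amplify cDNA from cells cut out of histological sections by laser capture microdissection (LCM), called DRaqL, and asked which genes follow the position of a granulosa cell or the growth of an oocyte. Granulosa cells are the somatic cells that surround the oocyte in a follicle. They were labelled neighboring when they lay next to the oocyte and non-neighboring when they did not.

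Ovaries came from 8-wk-old female mice, and sections were frozen, fixed in alcohol and stained with cresyl violet, except for a set fixed in formalin for 24 h. Single cells from alcohol-fixed sections were amplified with DRaqL-SC3-seq (31 neighboring and 26 non-neighboring granulosa cells, 14 oocytes of primary and 30 of secondary-to-antral follicles), with the SMART-Seq v4 kit (17, 17, 7 and 11), with DRaqL before that kit (20, 19, 6 and 9), with LCM-seq (17 and 20 granulosa cells) and with DRaqL-Smart-seq2 (15 and 19). Formalin-fixed cells were amplified with DRaqL-Protease-Smart-seq2 (12, 12, 5 and 7, in the order above). From a mouse in proestrus, 1 ovary gave cells cut from sections (35 neighboring cells, 35 non-neighboring cells and 8 oocytes), and the other gave dissociated cells amplified with Smart-seq2 (14 and 21 granulosa cells and 14 grown oocytes). There were also 7 neighboring and 7 non-neighboring pools of about 10 granulosa cells of early antral follicles, 7 bulk samples of the granulosa of sectioned follicles, and 2 serial sections of each of 8 oocytes. The mESCs were cultured in 2iLIF, and 45 were taken as dissociated cells and 36 by LCM from sections of frozen cell blocks. The labels give no follicle stage for the bulk samples, and they tie no cell to a mouse or a follicle. Each group of single cells therefore counted as 1 sample, and no test was made over cells.

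A follicle is bounded by a basal lamina, a sheet of type IV collagen and laminin that separates the granulosa cells inside from the theca cells, blood vessels and stroma outside. A laminin is a trimer of an α, a β and a γ chain, and type IV collagen is a trimer of α chains encoded by 3 pairs of genes, each pair lying head to head on a chromosome. Outside the basal lamina, fibroblasts and theca cells make fibrillar collagens, of which types I and III are the most abundant in connective tissue, and type VI collagen, which forms beaded filaments.

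The 3′ libraries held 12748 to 17506401 reads on protein-coding genes, and the shallowest groups were the dissociated granulosa cells (medians of 87883.5 and 132194 reads for neighboring and non-neighboring cells). Levels are in RPM, a gene's reads scaled by the library's total on protein-coding genes, and means of log2 (RPM+1) are given with the SD over cells. Reads were counted near the 3′ end of a transcript, so that RPM has no length term. Whether different genes were captured equally well was not tested, and comparisons between genes below are of RPM alone. A list of 10 granulosa genes, such as Fshr and Inha, summed to at least 100 RPM in all 295 granulosa cells captured by LCM, apart from 3 cells that the study had set aside. A list of 14 oocyte genes did so in 120 of the 147 neighboring and in 51 of the 148 non-neighboring cells, and a list of 5 theca genes in 20 and in 98. Whether RNA of other cells contributed to the values below was not tested, except where a count without such cells is given.

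**Figure D1:**
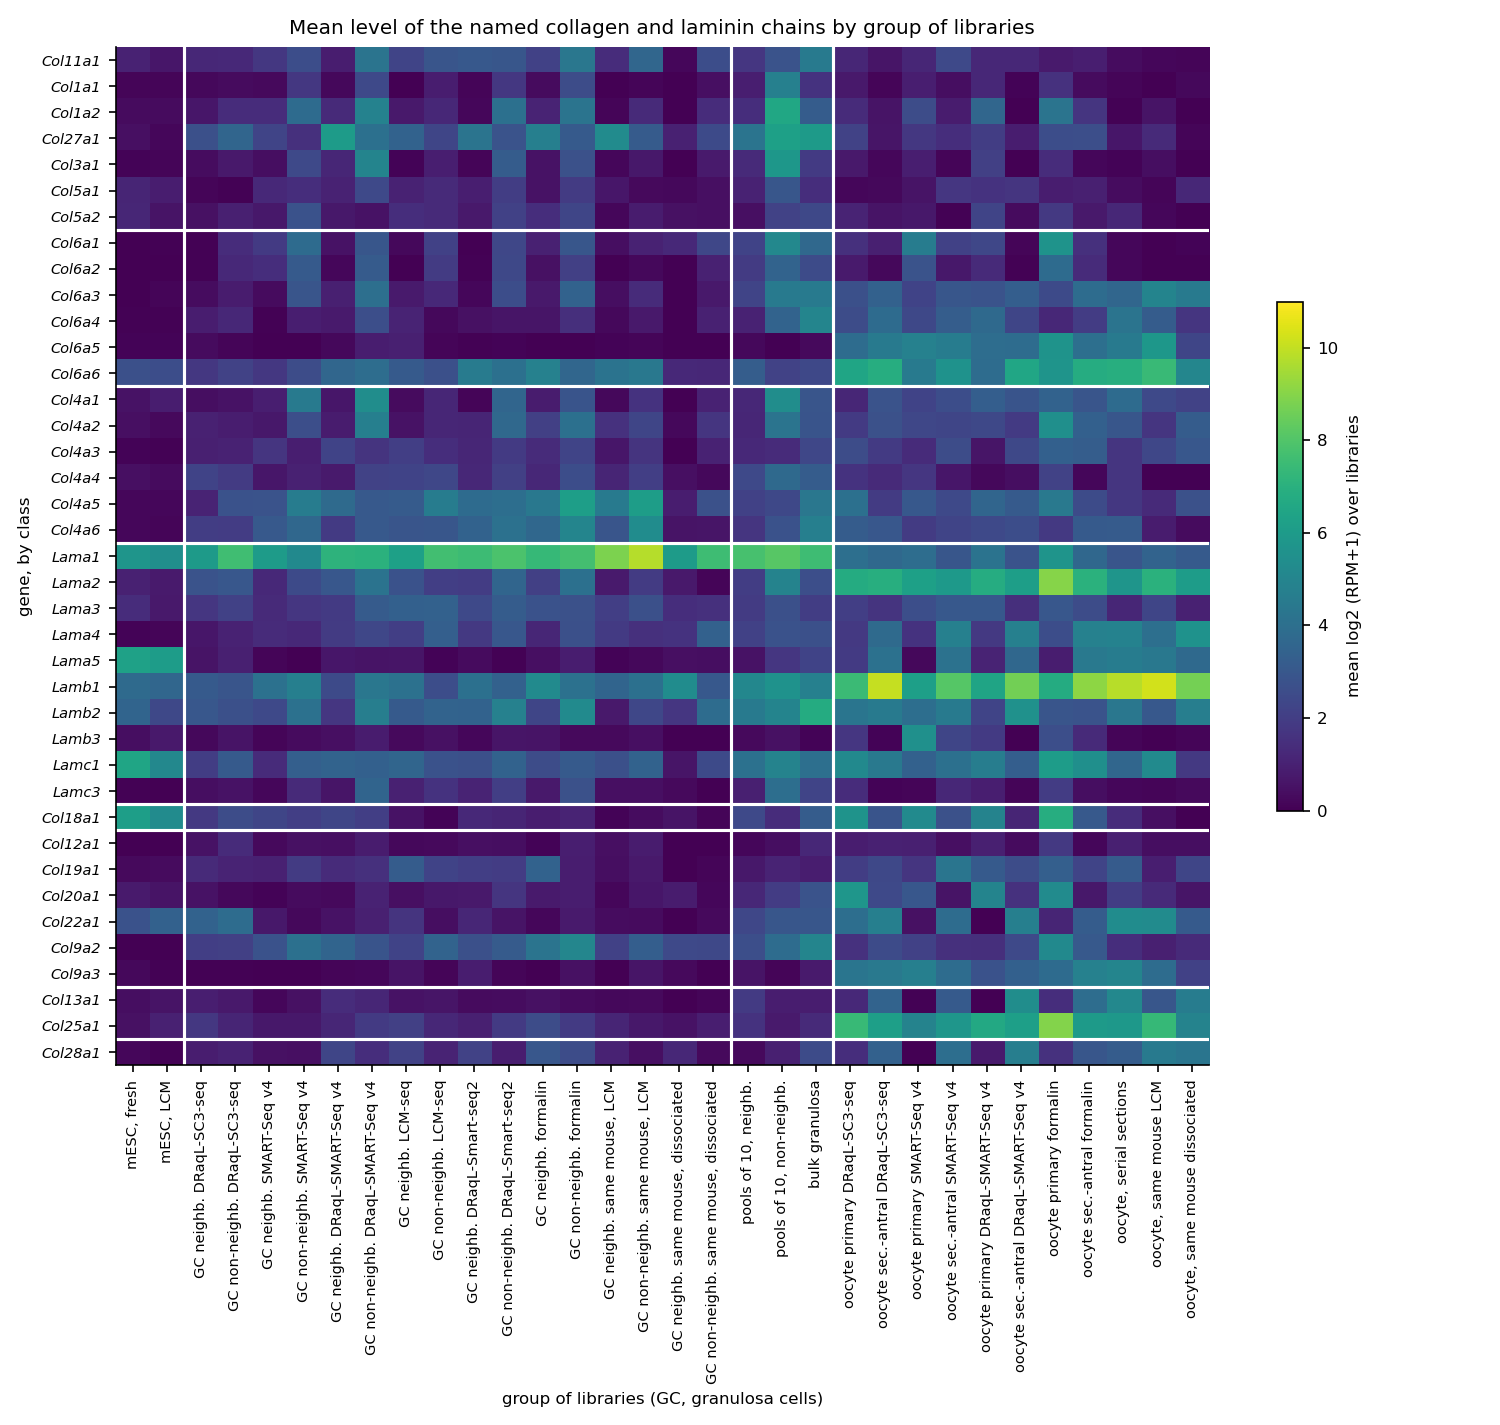
Mean log2 (RPM+1), by color, of the members described by name (rows, ordered by kind of chain) in the groups of libraries (columns). Lama1 stood out in all granulosa groups, Lamb1 in oocytes of secondary-to-antral follicles, and Col1a2, Col3a1 and Col4a1 in non-neighboring cells by DRaqL-SMART-Seq v4 and in non-neighboring pools.

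Lama1, the α1 chain of laminin, had the highest mean RPM of the 11 laminin chains in every group of granulosa cells, in the pools and in the bulk samples. With DRaqL-SC3-seq, Lama1 had a median of 110.5 RPM in the 31 neighboring cells (0 to 948.0) and of 398.6 in the 26 non-neighboring cells (0 to 1511), so that the ranges overlapped almost entirely. The mean log2 (RPM+1) of Lama1 was 5.98 ± 3.00 and 7.64 ± 2.54. The difference of these means was 1.66 with DRaqL-SC3-seq, but it was −0.83 with SMART-Seq v4, and Lama1 was higher in the non-neighboring cells in 6 of 8 methods. The highest levels of Lama1 were those of the mouse in proestrus, with a median of 506.1 RPM in 35 neighboring and of 941.2 RPM in 35 non-neighboring cells. In oocytes of primary follicles the medians of Lama1 were 21.6 to 47.4 RPM over the 4 methods, and in the other oocyte groups they were 2.49 to 15.9 RPM.

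The chains that complete a trimer with Lama1 were lower and less regular. Lamb1, the β1 chain, was found with a median of 3.21 RPM in neighboring cells by DRaqL-SC3-seq, with reads in 67.7% of 31 cells (Clopper-Pearson 95% interval 48.6% to 83.3%), and up to 501.7 RPM in a single cell. Lamc1, the γ1 chain, had a median of 3.14 RPM in the 26 non-neighboring cells and up to 440.9 RPM. Lamb2, the β2 chain of many adult basement membranes, averaged 81.05 RPM in the neighboring and 67.5 RPM in the non-neighboring cells by DRaqL-SC3-seq. It was higher in non-neighboring cells in 7 of 8 methods, by at least 1 on the log2 scale in 6 of them (−0.31 to 2.98). Summed over the 11 chains, laminins reached 100 RPM in 135 of 147 neighboring LCM cells (91.8%, 86.2% to 95.7%) and in 144 of 148 non-neighboring cells (97.3%, 93.2% to 99.3%). The intervals here and below are Clopper-Pearson intervals of a count of cells. They cover the sampling of cells alone, and not the error of read counts, which came from amplified cDNA without molecular identifiers. They are no test of position, since the cells of a group are not replicates of it.

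Type IV collagen chains divided by gene pair. Col4a1 and Col4a2, which encode the most widespread form of the network, together reached 100 RPM in 5 of 147 neighboring LCM cells (3.40%, 1.11% to 7.76%) and in 43 of 148 non-neighboring cells (29.1%, 21.9% to 37.1%). Across the methods, the share ranged from 0% to 8.33% in neighboring and from 3.85% to 63.2% in non-neighboring cells. Col4a5 and Col4a6, found in the basement membranes of fewer tissues, reached 100 RPM in 38 neighboring (25.9%, 19.0% to 33.7%) and in 65 non-neighboring cells (43.9%, 35.8% to 52.3%). In the mouse in proestrus, Col4a5 had a median of 18.8 RPM in neighboring and of 102.9 in non-neighboring cells. Col4a6 had medians of 3.54 and 58.7 RPM there, and 1 non-neighboring cell held 9934 RPM of Col4a6. The ranges of both genes overlapped between positions, since both positions held cells at 0.

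The genes of each pair start next to each other, and how often their RNAs were found in the same library can be set beside the sequence between them. In GENCODE vM21, which annotates GRCm38, the starts of Col4a1 and Col4a2 on chromosome 8 overlapped by 21 bases. Those of Col4a4 and Col4a3 on chromosome 1 lay 72 bases apart, and those of Col4a6 and Col4a5 on the X chromosome 1309 bases apart. The stretches below were read from GRCm38.p6, 5′ to 3′ in the direction of the named gene. They are shown because they hold the start regions that the genes of a pair share or use. Capitals mark a CCAAT (the CCAAT box) or the reverse complement of GGGCGG (the GC box, CCGCCC), the motifs searched with TATAAA on both strands.
Col4a2, 30 bases at chr8:11312761-11312790, plus strand, which overlap an exon of Col4a1: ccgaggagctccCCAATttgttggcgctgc
Col4a4, the 71 bases between the starts of Col4a4 and Col4a3, chr1:82586850-82586920, minus strand: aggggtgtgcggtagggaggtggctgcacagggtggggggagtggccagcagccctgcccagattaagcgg
Col4a6, 250 bases before its start, chrX:141474077-141474326, minus strand: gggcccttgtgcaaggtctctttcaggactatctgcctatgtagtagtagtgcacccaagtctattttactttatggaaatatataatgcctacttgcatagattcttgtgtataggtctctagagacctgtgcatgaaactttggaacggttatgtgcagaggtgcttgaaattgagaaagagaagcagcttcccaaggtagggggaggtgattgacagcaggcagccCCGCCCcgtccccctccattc
Col4a5, 216 bases before its start, chrX:141475169-141475384, plus strand: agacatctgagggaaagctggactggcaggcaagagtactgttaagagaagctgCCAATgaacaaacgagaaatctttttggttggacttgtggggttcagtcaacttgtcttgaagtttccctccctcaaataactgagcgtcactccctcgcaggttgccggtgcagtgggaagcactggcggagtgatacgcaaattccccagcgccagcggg

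Over the 32851 promoters of 300 bases in RefSeq's annotation of that build, CCAAT was found in 37.4%, GGGCGG in 35.7% and TATAAA in 13.6%. Of the 44 promoters that matched 40 of the members, 14 (31.8%), 26 (59.1%) and 5 (11.4%) held them. A match of letters is not a binding site. Among the 169 non-neighboring granulosa cells of the 8 methods, at least 10 RPM of both Col4a1 and Col4a2 were found in 39 cells, of Col4a1 alone in 10 and of Col4a2 alone in 13. For Col4a5 and Col4a6 the counts were 57, 38 and 18. For Col4a3 and Col4a4, whose starts are only 72 bases apart, they were 11, 19 and 31, so that most cells with 1 of these chains lacked the other at this level. In the 161 neighboring cells, both Col4a1 and Col4a2 were found in 2 cells, 1 chain alone in 2 and 18, and neither in 139. Cells differ in depth, and a chain under 10 RPM can be missed at these depths.

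**Figure D2:**
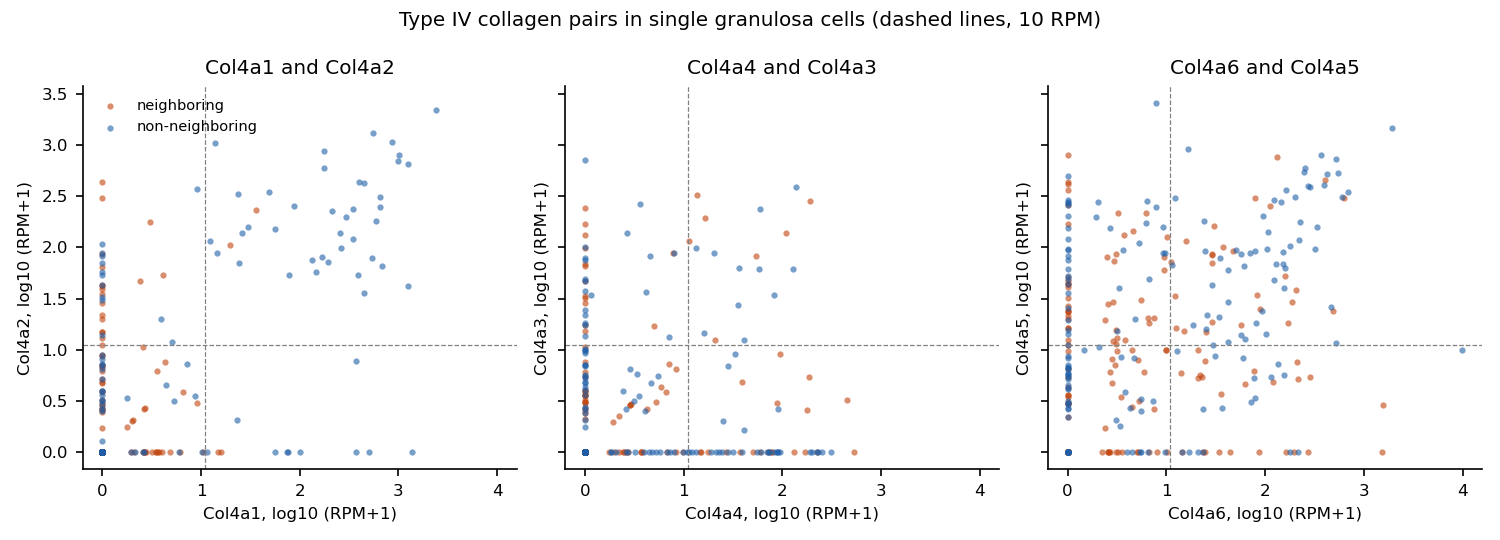
RPM of the genes of each head-to-head type IV collagen pair in single granulosa cells, with 1 point per cell on logarithmic axes, by position. Col4a1 and Col4a2 were at 10 RPM or more together in 39 of 169 non-neighboring cells and Col4a3 and Col4a4 in 11.

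Collagens of the interstitial matrix differed among themselves in how often neighboring cells held them. The sum of Col1a1, Col1a2 and Col3a1, the chains of type I and type III collagen, reached 100 RPM in 2 of 147 neighboring LCM cells (1.36%, 0.165% to 4.83%) and in 36 of 148 non-neighboring cells (24.3%, 17.7% to 32.1%). Across methods, the share in non-neighboring cells ranged from 8.57% to 52.6%. All fibrillar chains together, which include Col27a1 and Col11a1, reached 100 RPM in 59 neighboring (40.1%, 16.1% to 70% by method) and in 84 non-neighboring cells (56.8%, 40% to 89.5% by method). Type VI collagens did so in 18 neighboring (12.2%) and 54 non-neighboring cells (36.5%). For the sum of types I and III, the counts at 10 RPM were 17 and 52 cells, and at 1000 RPM they were 0 and 16. In dissociated cells, 0 of 14 neighboring (an upper limit of 23.2%) and 3 of 21 non-neighboring cells (14.3%, 3.05% to 36.3%) reached 100 RPM of this sum. The study found profiles mixed with those of oocytes in some dissociated cells, more often in those attached to oocytes, and such cells were kept here. The mean sum of types I and III was 0 to 14.1 RPM in the 8 groups of neighboring cells and 29.1 to 908 RPM in the 8 groups of non-neighboring cells, so that the means of the positions did not overlap. The cells within a group differed widely. With DRaqL-SC3-seq, Col1a2 had a median of 0 RPM at either position, a highest value of 33.1 RPM in the 31 neighboring cells and of 1640 RPM in the 26 non-neighboring cells.

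Marker lists of other cell types were measured beside these collagens in the same cells. A list of 6 stroma and fibroblast genes, none of them a collagen, reached 100 RPM in 34 of the 148 non-neighboring cells, of which 28 also had 100 RPM of type I and III collagens. The theca list reached that level in 98 cells, 32 of them together with the collagens, the smooth muscle list in 25 and 14, and the endothelium list in 29 and 12. Genes of the theca list differed between cells. In LCM-seq cell 13, Hsd3b1 made up 1014.7 of its 1023.6 RPM and Cyp17a1 was at 0, whereas DRaqL-SMART-Seq v4 cell 9 held 5020 RPM of Cyp17a1. A sum of this list alone therefore does not name a theca cell. In neighboring cells, the stroma list reached 100 RPM in 3 cells and in none together with the collagens. When cells with 100 RPM of the stroma list were left out, 8 non-neighboring (7.02% of those left) and 2 of 144 neighboring cells remained above 100 RPM of collagen. The oocyte list had a median of 36921 RPM in the oocytes of secondary-to-antral follicles by DRaqL-SC3-seq. When cells with 10% or more of this level were left out, the counts were 36 of 143 and 2 of 123. Across non-neighboring cells, Spearman's rho between the collagen sum and the stroma list was 0.02 with DRaqL-SC3-seq (26 cells), 0.73 with SMART-Seq v4 (17), 0.75 with DRaqL-SMART-Seq v4 (19), 0.39 with LCM-seq (20), 0.87 with DRaqL-Smart-seq2 (19), 0.54 in formalin-fixed cells (12) and 0.42 in the mouse in proestrus (35). With the granulosa list, rho was −0.61 with DRaqL-SMART-Seq v4 and −0.33 to 0.13 in the non-neighboring cells of the other 7 methods. The points of each value share the library batch and the total that scales them, and no p-value was derived.

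**Figure D3:**
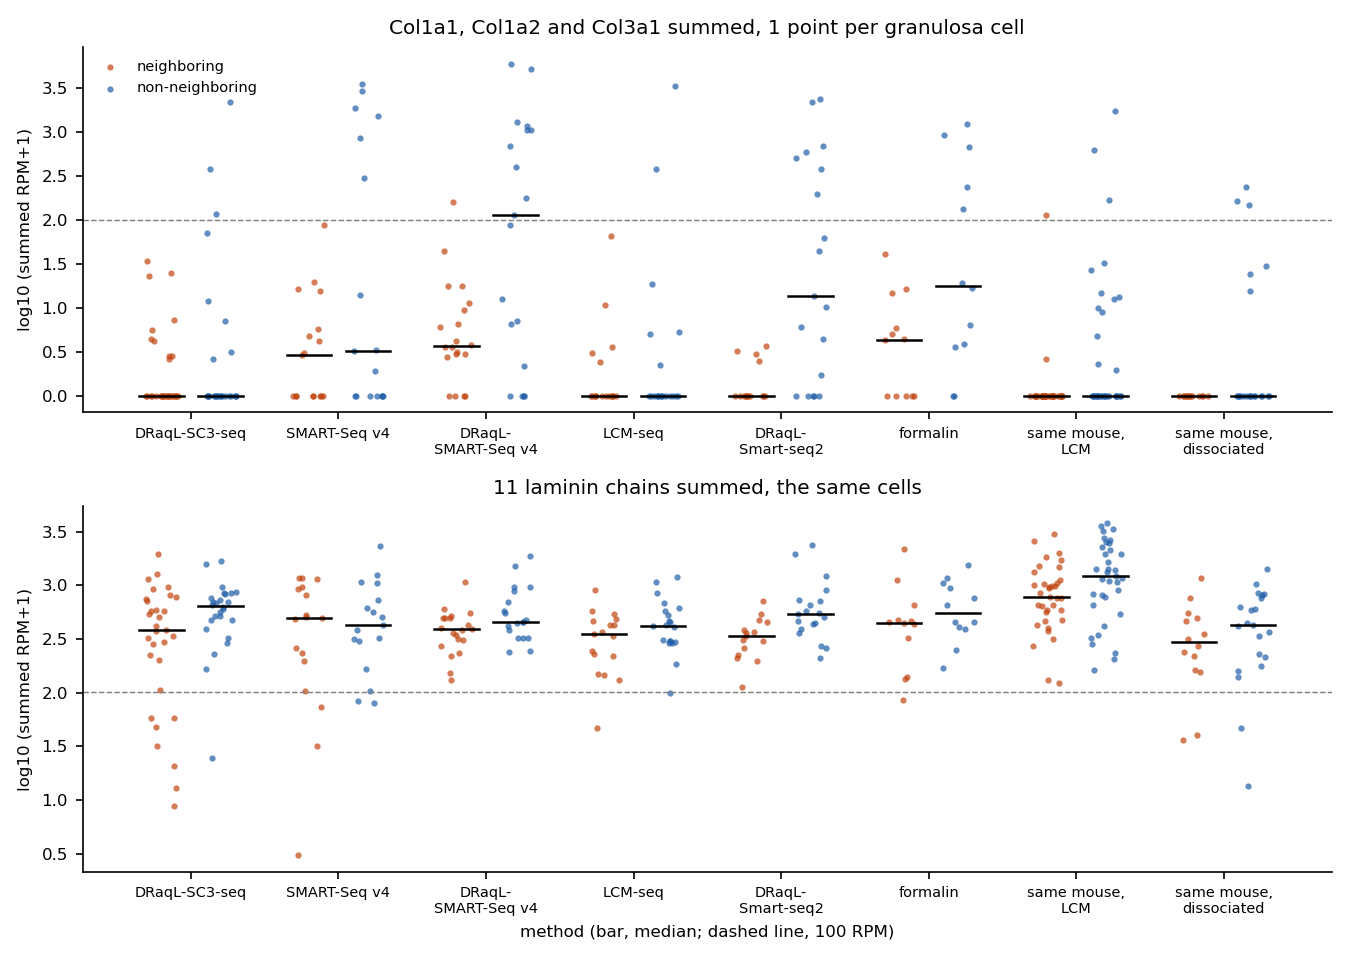
Summed RPM of type I and III collagen chains (upper panels) and of laminin chains (lower panels) in each granulosa cell by position, for the 8 methods, with 1 point per cell on a logarithmic axis. Laminin sums of at least 100 RPM were found in 135 of 147 neighboring and 144 of 148 non-neighboring LCM cells, whereas collagen sums of at least 100 RPM were found in 2 and 36 cells.

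Over all members, the positions were compared by the difference in mean log2 (RPM+1), non-neighboring minus neighboring, and a difference of at least 1 was counted by size alone. With DRaqL-SC3-seq, 5 of 54 members with a read were higher by at least 1 (9.26%, against 7.54% of all genes with a read). The share was 31.4% with SMART-Seq v4 (16 of 51, background 12.1%), 34.5% with DRaqL-SMART-Seq v4 (19 of 55, background 11%), and 11.1% with LCM-seq (6 of 54, background 4.77%). It was 27.3% with DRaqL-Smart-seq2 (15 of 55, background 5.37%), 35.3% in formalin-fixed cells (18 of 51, background 8.66%), and 14.5% in the LCM cells of the mouse in proestrus (8 of 55, background 6.71%). In dissociated cells it was 31.8% (14 of 44), near the background of 33.2%. In the order of methods above, members lower by at least 1 numbered 0, 0, 2, 5, 2, 4, 1 and 1, against 2.84%, 6.90%, 6.67%, 13%, 8.84%, 14.8%, 4.64% and 3.39% of all genes, and none of these counts exceeded its background as a share.

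The same chains recurred across methods. Col1a1, Col1a2, Col3a1, Col4a1 and the type VI chains Col6a1, Col6a2 and Col6a3 were higher in non-neighboring cells in 8 of 8 methods, which was 7 of the 43 members with a read in every method (16.3%) against 2.48% of 13284 genes. No dissociated neighboring cell held a read of Col1a1, Col1a2, Col3a1 or Col4a1. These chains could therefore only be higher in that method, once a read was required. The same held for Col1a1 with LCM-seq and in the LCM cells of the mouse in proestrus. The share of all genes was counted under the same requirement. None of the 43 was lower in every method (2.14% of all genes), and none differed by at least 1 in every method, higher (0.0151%) or lower (0.151%). With library sizes scaled by TMM, these 7 were again higher in every method. Without cells with 10% or more of the oocyte list's level, 9 members were (2.41% of all genes), with Lama3 and Col4a2 added. Without the cells that had 100 RPM of the stroma list, 4 of the 7 were, of 40 members with a read (1.9% of all genes), and the chains of types I and III dropped out. Col1a2 then differed by −0.14 with SMART-Seq v4, where it had differed by 2.47 with all cells. Col4a1 had the largest difference in any method, of 4.70 with DRaqL-SMART-Seq v4, where its median was 0 RPM in 20 neighboring cells (0 to 5.63) and 174.5 RPM in 19 non-neighboring cells (0 to 1235). In DRaqL-SC3-seq the difference of Col4a1 was 0.12. Col6a1 differed by 0.61 to 2.43 in the 8 methods and Col6a2 by 0.25 to 2.98. By the study's account, 1 ovary supplied the sections for DRaqL-SC3-seq, for both SMART-Seq v4 methods and for the methods based on DRaqL-Smart-seq2, with or without protease. The study also lists Smart-seq2, run after a published LCM protocol, and LCM-seq appears to be that method. Most methods thus sampled 1 ovary repeatedly, and their number is not a number of animals.

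Some members went the other way or did not follow position. Col27a1, a fibrillar collagen best known from cartilage, was lower in non-neighboring cells in 6 of 8 methods (−2.12 to 1.43). In the mouse in proestrus, Col27a1 had a median of 69.6 RPM in neighboring LCM cells (0 to 793.8) and of 2.50 RPM in non-neighboring cells (0 to 494.8). Col28a1 was lower in 7 of 8 methods by at most 1.27. Col9a2, a chain of the fibril-associated type IX collagen, averaged 27.2 to 72.1 RPM in the neighboring and 27.4 to 78.7 RPM in the non-neighboring cells of the 7 LCM methods. Col11a1, another fibrillar chain, was higher in non-neighboring cells in 7 of 8 methods, by up to 3.34. In 3 DRaqL-SC3-seq cells that the study set aside, type I and III collagens summed to 0 in the 2 non-neighboring cells and to 1.60 RPM in the neighboring cell, and Col18a1 reached 1345 RPM in the latter.

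Pools and bulk samples were the groups in which members could be tested. The pools held about 10 cells each, and the median of Col1a2 was higher in non-neighboring pools. Col1a2 was at 721.2 RPM in neighboring pool 1 and at 0 to 0.23 RPM in the other 6. In non-neighboring pools 1 to 7 it was at 2221, 1246, 217.6, 0, 111.9, 213.8 and 3.12 RPM. Thus 5 of 7 non-neighboring pools and 1 of 7 neighboring pools held over 100 RPM of Col1a2, and the ranges of the positions overlapped. Col3a1 was at 340.0 RPM in neighboring pool 1 and at most 0.45 RPM in the others, against 864.4, 806.6, 177.4, 0.12, 32.02, 431.5 and 0 RPM in non-neighboring pools 1 to 7. Col4a1 was at 175.3 RPM in neighboring pool 1 and at most 0.45 RPM in the others, with a median of 141.5 RPM in non-neighboring pools (0 to 560.9). Lama1 was in every pool, at 102.96 to 460.5 RPM in neighboring pools (median 169.9) and at 93.6 to 509.9 RPM in non-neighboring pools (median 342.8), and the ranges nearly coincided.

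By edgeR's quasi-likelihood test with Benjamini-Hochberg adjustment over 9704 genes, 0 of the 18 members that passed the filter on low counts were called between the positions of the pools, while 44 genes (0.453%) were called in all, each of them higher in the neighboring pools, among them 9 of 14 genes of the oocyte list. Without the pools that held 10% or more of the oocyte list's median level in oocytes, 0 genes and 0 members were called. At an unadjusted p under 0.05, 1 member and 402 genes (4.14%) were found, and DESeq2 also called 0 members (2 at an unadjusted p under 0.05). The member was Lama2, the laminin α2 chain of muscle and mesenchymal basement membranes, with a log2 fold change (neighboring over non-neighboring) of −3.42 ± 1.49 (SE, p = 0.0328, adjusted p = 0.998 in edgeR). The value of Lama2 was 117.8 RPM in neighboring pool 1 and at most 6.09 RPM in the others, against a median of 24.2 RPM in non-neighboring pools (0.61 to 541.1). The fold changes were negative for 16 of the 18 members, with a median of −1.02. Over all genes tested they were negative for 4886 of 9704, with a median of −0.01. Without the 3 stroma-rich pools described below they were negative for 10 of 14 members, with a median of −0.41. Over all genes this was 4467 of 9998, with a median of 0.14. With no filter they were negative for 43 of 55 members, with a median of −1.53, against 9171 of 19026 genes, with a median of 0.06. Col1a2 had −2.83 ± 1.91 (edgeR, adjusted p = 0.998), Lamb1 −1.64 ± 0.98 and Lama1 −0.37 ± 0.43. The labels do not say whether pools of the same number belong together. With the pool number as a block, 0 members were called, and Col1a2 had −9.78 ± 1.53 (edgeR, adjusted p = 0.0503). Col1a1, Col3a1, Col4a1 and Col4a2 did not pass the filter, which asks for reads in as many libraries as a group holds. A p-value here covers the pools, whose mice and follicles are not named.

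The 3 pools with most Col1a2 were those with most stroma RNA, although 1 of the other 11 held more Col3a1 than neighboring pool 1. The stroma list summed to 604.2 RPM in neighboring pool 1, to 606.2 and 803.0 RPM in non-neighboring pools 1 and 2, and to at most 67.7 RPM in the other 11. The theca list was at 2071 RPM in neighboring pool 1 and at most 253.9 RPM in the other neighboring pools, and at 40.2 to 5239 RPM in the non-neighboring pools. The smooth muscle list was at 3256 RPM in non-neighboring pool 2. Without these 3 pools, 0 members were called, and the log2 fold changes of Lamb1 and Lama3 turned to 0.32 and 0.58. In pools, fewer cells of a type and less RNA per cell cannot be told apart.

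**Figure D4:**
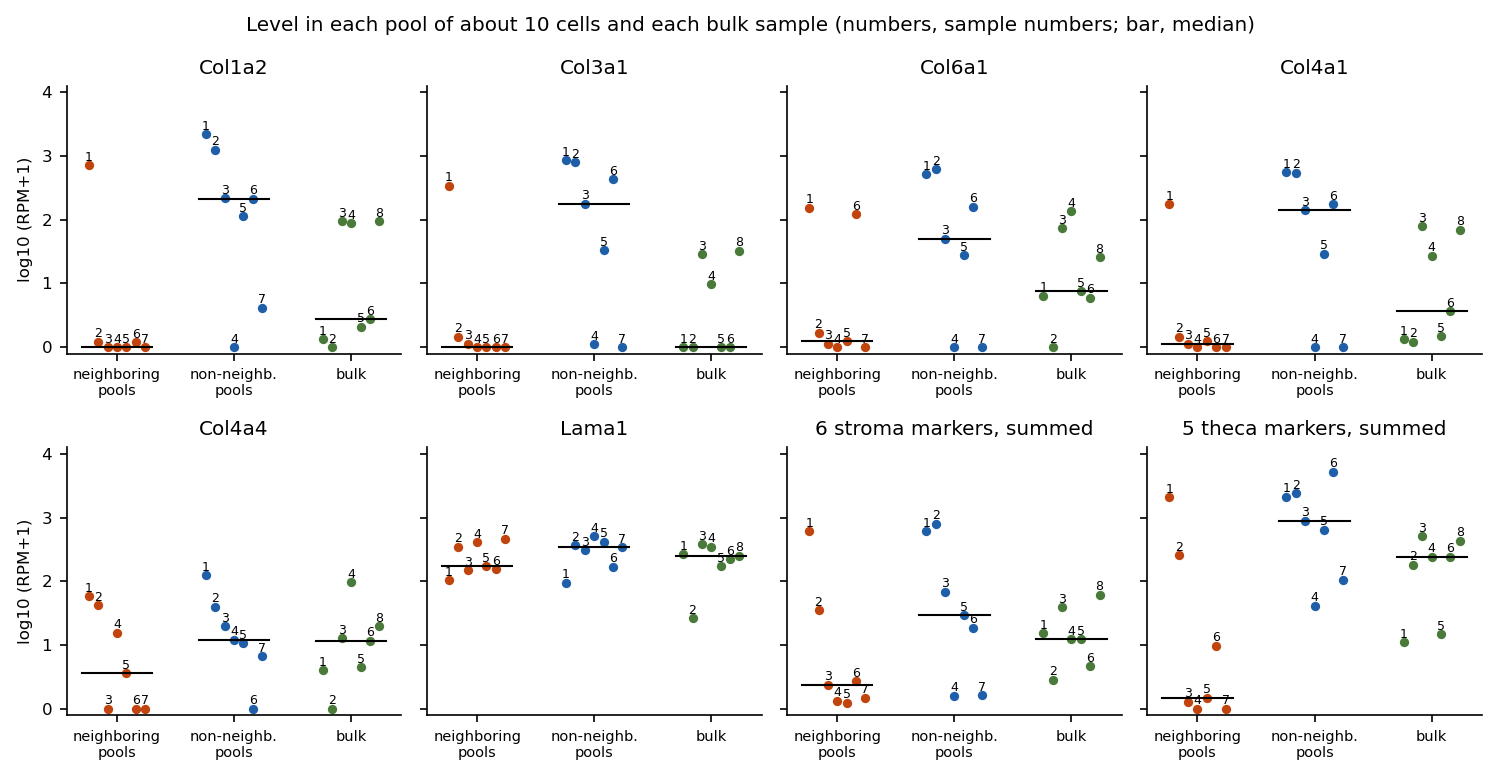
RPM of Col1a2, Col3a1, Col6a1, Col4a1, Col4a4 and Lama1 and summed RPM of stroma and theca markers in the 7 neighboring pools, the 7 non-neighboring pools and the 7 bulk samples, with 1 point per library on logarithmic axes. Lama1 was at 25.5 RPM or more in all 21 libraries, and Col1a2 ranged from 0 to 2221 RPM.

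Bulk samples hold the granulosa of a sectioned follicle, and they differed widely in collagen. Col1a2 was at 0.32, 0, 94.1, 87.6, 1.10, 1.75 and 94.6 RPM in bulk samples 1 to 6 and 8, so that 3 samples held about 90 RPM and 4 held under 2 RPM. Col4a1 was at 78.3, 26.3 and 68.2 RPM in the same 3 samples (3, 4 and 8) and at most 2.69 RPM in the others. Lama1 was at 25.5 to 382.4 RPM (median 252.2). Against the 14 pools, 0 of 36 tested members were called by edgeR (12 of 11917 genes, 0.101%, were called in all), and DESeq2 called 0 members (5 at an unadjusted p under 0.05). Bulk samples and pools also differed in their number of cells, and the follicle stage of the bulk samples is not labelled. The kind of sample cannot be told apart from these. Col11a1 was the 1 member with an unadjusted p under 0.05, at a log2 fold change (bulk over pools) of 2.60 ± 1.07 (SE, p = 0.0228 in edgeR). Col11a1 was at 3.67 to 115.4 RPM in bulk samples (median 14.3) and at 0 to 26.2 RPM in pools. Of the 36 fold changes 23 were negative and 13 positive, with a median of −0.56. Over all genes tested, 6515 of 11917 were negative, with a median of −0.09. Leaving out the 3 pools with stroma RNA turned 14 of the fold changes to the other sign, Col1a2 to 3.75 and Col4a1 to 3.00, and Col5a2 was then called, so that the direction of these 14 rested on the 3 pools.

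In oocytes of secondary-to-antral follicles, Lamb1 had the highest mean RPM of the laminin chains. Lamb1 was at 511.4 to 1570 RPM in the 30 oocytes of secondary-to-antral follicles by DRaqL-SC3-seq (median 1150), and at 37.8 to 397.5 RPM in the 14 oocytes of primary follicles (median 180.4), so that these ranges did not overlap. Mean log2 (RPM+1) of Lamb1 was 10.05 ± 0.42 and 7.49 ± 0.96, a difference of 2.56. The difference was 1.86 with SMART-Seq v4 (166.1 to 373.1 RPM in 11 oocytes against 26.1 to 110.6 in 7), 2.25 with DRaqL-SMART-Seq v4 (205.4 to 609.0 in 9 against 31.4 to 164.5 in 6) and 2.37 in formalin-fixed oocytes. In the latter, Lamb1 was at 222.3 to 796.3 RPM in 7 oocytes of secondary-to-antral and at 36.1 to 235.6 RPM in 5 of primary follicles, ranges that overlapped slightly. The 16 serial sections held 770.3 to 1118 RPM of Lamb1, and the sections of an oocyte differed by a median of 0.15 on the log2 scale, against 0.13 between different oocytes. Lamb1 was at 631.5 to 1722 RPM in the 8 LCM oocytes and at 270.8 to 745.2 RPM in the 14 dissociated oocytes of the mouse in proestrus. Granulosa cells averaged 21.1 to 122 RPM of Lamb1 over the 8 methods.

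A laminin β chain is secreted in a trimer with an α and a γ chain. The γ1 chain Lamc1 was at a median of 24.3 RPM in the 30 oocytes of secondary-to-antral follicles by DRaqL-SC3-seq (8.47 to 32.4), far under Lamb1 on the same scale, and at 46.7 RPM in those of primary follicles (4.78 to 245.1). Lama2 had the highest mean RPM of the α chains in oocytes in each of the 11 groups, and in oocytes of primary follicles its mean was above that of Lamb1 with SMART-Seq v4 (84.1 against 81.99 RPM), with DRaqL-SMART-Seq v4 (120 against 97.1) and in formalin (576 against 133). It was at 34.96 to 433.0 RPM in the same 30 oocytes (median 116.5). Lama5, the α5 chain of most epithelial and endothelial basement membranes, had a median of 1.81 RPM (0 to 36.99) in primary and of 20.96 RPM (0 to 40.05) in secondary-to-antral follicles, and Lama4 was higher by 1.98 on the log2 scale.

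Members that differed by at least 1 in the same direction in all 4 methods numbered 8. Lamb1, Lama5 (2.24 to 3.92), Lama4 (1.98 to 3.14), Col13a1 (2.21 to 5.41) and Col28a1 (1.38 to 3.98) were higher in secondary-to-antral follicles. They were 5 of 53 members (9.43%), a share near that of all genes (10.8%). Those higher by any size in all 4 methods were 9 of 53, against 30.4% of all genes. Col13a1 encodes a collagen that spans the cell membrane, and with DRaqL-SMART-Seq v4 it was at 0 in all 6 oocytes of primary follicles and at a median of 56.03 RPM in 9 of secondary-to-antral follicles (0 to 105.2). Col18a1 (−3.78 to −2.51), Col20a1 (−4.59 to −2.40) and Lamb3 (−3.24 to −1.33) were lower in secondary-to-antral follicles (3 of 53, 5.66%, against 2.96% of all genes). Col18a1, the basement membrane collagen from which endostatin is cut, had a median of 89.6 RPM in oocytes of primary follicles by DRaqL-SC3-seq (0.56 to 477.9) and of 2.28 RPM in those of secondary-to-antral follicles (0 to 209.1). Col20a1, a fibril-associated collagen, had medians of 91.9 (0 to 416.5) and 5.88 RPM (0 to 50.99). The same 8 members differed by at least 1 in all methods without the 4 primary oocytes that had 100 RPM of the stroma list, and with TMM-scaled library sizes.

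By method, the members higher by at least 1 in secondary-to-antral follicles were 8 of 55 with DRaqL-SC3-seq (14.5%, background 21.2%), 15 of 53 with SMART-Seq v4 (28.3%, background 24.8%), 10 of 55 with DRaqL-SMART-Seq v4 (18.2%, background 26.3%) and 9 of 54 in formalin-fixed oocytes (16.7%, background 20.9%). Those lower by at least 1 were 10 (18.2%, background 9.88%), 8 (15.1%, background 11.9%), 19 (34.5%, background 16.6%) and 25 (46.3%, background 19.0%). The members lower in all 4 methods were 13 of 53 (24.5%, background 17.4%). They included Col1a1, Col1a2, Col3a1, Col6a1, Col6a2 and Lama1, and also Col4a5, Col5a2, Col18a1, Col20a1 and Lamb3. In the oocytes of primary follicles, the stroma list averaged 15.7, 7.52, 125 and 90.5 RPM in the order of methods above, and 2.25, 4.26, 1.14 and 6.90 RPM in those of secondary-to-antral follicles. The granulosa list averaged 649, 604, 448 and 1308 RPM in primary against 322, 504, 318 and 754 RPM in secondary-to-antral follicles. Col1a2 differed by −3.63 with DRaqL-SMART-Seq v4 and by −2.08 without the 2 oocytes with stroma RNA, and Col6a2 by −1.22 and 0.08.

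**Figure D5:**
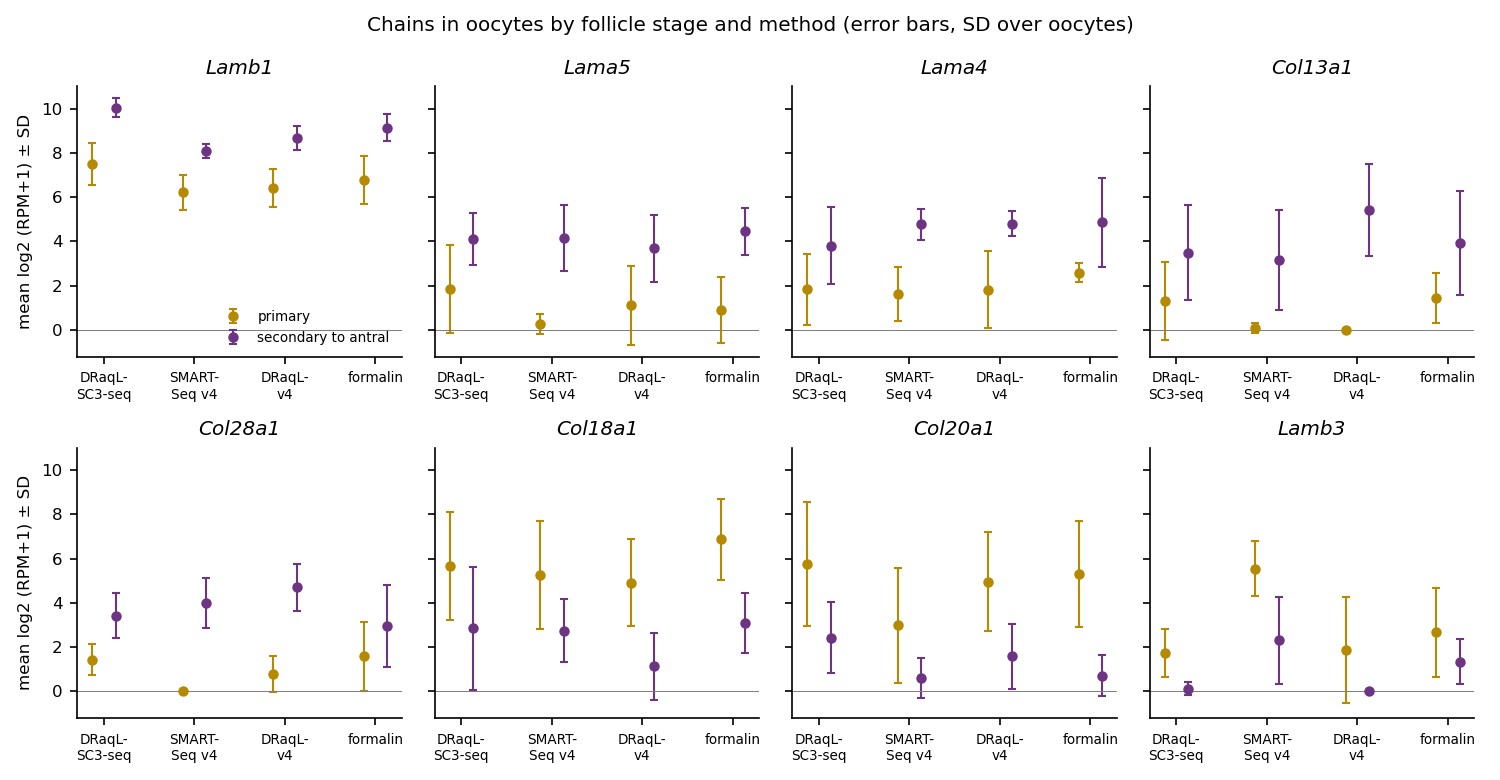
Mean log2 (RPM+1), with the SD over oocytes as bars, of 8 laminin and collagen genes in oocytes of primary and of secondary-to-antral follicles by 4 methods. Lamb1, Lama5, Lama4, Col13a1 and Col28a1 were higher in secondary-to-antral follicles and Col18a1, Col20a1 and Lamb3 lower in each method, by at least 1.

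Other collagens of oocytes were uncommon types. Col25a1, a membrane-spanning collagen of neurons and muscle, averaged 315 RPM in oocytes of primary and 92.7 RPM in those of secondary-to-antral follicles by DRaqL-SC3-seq, and 586 and 80.2 RPM in formalin-fixed oocytes. With SMART-Seq v4 the averages of Col25a1 were 45.4 and 58.9 RPM, so that its order depended on the method. Col6a6, a type VI chain, averaged 24.9 to 191 RPM over the 11 oocyte groups, and Col6a5 averaged 6.33 to 68.1 RPM, while Col6a1 was at 0 in all 8 LCM oocytes of the mouse in proestrus. Type I and III collagens summed to a mean of 0.263 RPM in the 16 serial sections. Of the chains that type VI filaments are usually built of, Col6a1 and Col6a2 averaged 0.239 and 0.252 RPM in these sections, and Col6a3 averaged 15.96 RPM, while Col6a6 averaged 125 RPM (55.8 to 206.2).

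Libraries with Y-shaped adapters, which cover transcripts beyond the 3′ end, were sequenced from 10 mESCs and 5 oocytes of secondary-to-antral follicles. In all 5 oocytes, reads spanned junctions between exons of Lamb1 (521 to 1117 reads, median 826), and 15 of its 56 listed exons were above 2 TMM-scaled CPM in each. Junctions of Col22a1 (30 to 123 reads), Lama5 (13 to 54), Col6a5 (13 to 18), Lama2 (4 to 53), Lamb2 (7 to 22) and Lama4 (2 to 44) were found in all 5 oocytes, and those of Col25a1 in 4. Those of Col6a4 (1 to 21 reads) were also found in all 5. In the mESCs, Lama5 (7 to 178 reads) and Lama1 (2 to 154, median 77.5) had junction reads in 10 of 10 libraries, Lamb2 in 9 and Lamb1 in 7. Col19a1 had them in 8 (0 to 3 reads). Col18a1 had none, while 2 to 7 of its 51 listed exons were above 2 TMM-scaled CPM. The labels of dissociated and LCM cells may be exchanged among these mESC libraries, so that the 10 are described together. Junction reads were found for 20 of the 55 members in an oocyte and for 9 in an mESC.

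In the 3′ libraries of mESCs, the chains of an embryonic laminin were found side by side. Lama5 averaged 102.5 RPM in the dissociated and 117 RPM in the LCM cells, Lama1 83.7 and 84.3 RPM, Lamc1 103.3 and 58.5 RPM, and Lamb1 41.7 and 46.5 RPM. The laminin sum was 118.8 to 787.5 RPM in 45 dissociated cells (median 361.7) and 45.6 to 794.6 RPM in 36 LCM cells (median 316.3). Col18a1 averaged 113.3 and 86.02 RPM and was the highest collagen, though no junction read of it was found in mESCs. Type IV collagens summed to means of 7.54 and 6.76 RPM, against 132 RPM in neighboring and 122 RPM in non-neighboring granulosa cells by DRaqL-SC3-seq, and type I and III collagens to 1.00 and 0.897 RPM.

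Genes that act on these chains were read from 4 fixed lists, of basement membrane partners (13 genes), collagen making (27), receptors (13) and matrix proteases and their inhibitors (14). Between the positions of the pools, edgeR called 0 of 6, 0 of 21, 0 of 6 and 0 of 6 tested genes, and 3 genes of collagen making had an unadjusted p under 0.05. These were Loxl2 and Loxl3, of the family of lysyl oxidases that cross-link collagens (log2 fold changes of −4.10 and −2.68), and Serpinh1, a chaperone of collagen folding (−0.98, at a mean of 191 RPM in neighboring and 338 RPM in non-neighboring pools). Of the basement membrane partners, Sparc was at a mean of 427 RPM in neighboring and 403 RPM in non-neighboring pools and Fbln1 at 393 and 280 RPM, beside 256 and 314 RPM of Lama1. Of the receptors, Dag1, which encodes dystroglycan, a receptor of laminin, was at 389 and 398 RPM. Between bulk samples and pools, 0 genes of these lists were called by edgeR, and Mmp2, a gelatinase, with −3.47 and Itga11, a subunit of a collagen receptor, with 2.101 had an unadjusted p under 0.05. In mESCs, the highest partners were Fn1 and Nid2, at means of 830 and 433 RPM in the dissociated cells.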

How the data were processed

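Libraries of mouse granulosa cells, oocytes and mESCs were analysed, of which 562 of the 577 samples were 3′-end libraries and the others were made with Y-shaped adapters. The authors deposited raw read counts per gene, which they made with cutadapt 1.16, fastp 0.20.0, HISAT2 2.1.0 (GRCm38) and HTSeq 0.10.0, and counts per exon and junction from featureCounts 2.0.1, as named in the paper's methods and the submitters' processing notes. Genes were limited to protein-coding ones, and RPM was computed from each library's total, which was 12748 to 17506401 reads, so that 1 read is worth more in a shallow library. The table columns held 0 unused columns of per-sample values, and no 2 libraries were identical.

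The members and marker lists were chosen with earlier results of these data known. The labels of pools and bulk samples do not say whether they came from separate mice, so that p-values measure the spread between these samples. Single-cell groups were compared by means of log2 (RPM+1), with no test, and a difference of 1 was counted against all genes with a read. Pools (7 against 7) and bulk samples (7 against 14 pools) were tested on counts with edgeR 4.0.16 in R 4.3.3 (TMM, filterByExpr, quasi-likelihood F-test, Benjamini-Hochberg, 0.05), after the steps had been tested on simulated data (seed 20230918). DESeq2 1.42.0, RLE factors, no filter, all genes of the table, a replicate block and omission of each replicate were the alternatives. Members described by name were type IV and laminin chains, those whose mean log2 (RPM+1) reached 4 in a group, those called in a test, and 8 interstitial chains (Col1a1, Col1a2, Col3a1, Col5a1, Col5a2, Col6a1, Col6a2 and Col6a3), which gave 40 of 55, of which 1 is not reported here. Of the theca list, 5 of 6 genes were in the tables. Promoter sequences were read from RefSeq (GRCm38.p6), and gene starts and exons from GENCODE vM21 (GRCm38). Python 3.11.15, pandas 2.3.3, SciPy 1.17.1 and matplotlib 3.10.9 were used.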

Additional observations from a re-analysis of the deposited data

Results flagged for a closer look

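In groups of 5 to 9 libraries, 12 of 54 values lay far from the others of their group by Dixon's criterion, in 9 groups tested. The criterion's rate of about 1 in 20 by chance assumes independent, normally distributed values. RPM values are skewed and some of these genes are parts of the sums, so that 12 of 54 cannot be set against that rate. Of the 12 values, 7 belonged to neighboring pool 1. It held 1252.5 RPM of fibrillar collagens (next highest pool 135.3), 459.7 RPM of type IV collagens (139.4) and 630.9 RPM of type VI collagens (161.6). Its Col1a2 was at 721.2 RPM (0.23), Col3a1 at 340.0 RPM (0.45), Col4a1 at 175.3 RPM (0.45) and Col4a2 at 94.9 RPM (0.95). The same pool held 604.2 RPM of the stroma list and 2071 RPM of the theca list.

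The other 5 were oocytes. The laminin sum of LCM oocyte 8 of the mouse in proestrus was 5361 RPM (next 1894), of which Lama2 was 4689 RPM. Type IV collagens summed to 1303 RPM in DRaqL-SMART-Seq v4 primary oocyte 5 (76.03), to 842.3 RPM in formalin-fixed primary oocyte 1 (211.6) and to 168.1 RPM in DRaqL-SMART-Seq v4 secondary-to-antral oocyte 7 (53.4). Fibrillar collagens summed to 204.7 RPM in SMART-Seq v4 primary oocyte 6 (58.8).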

How the results depend on the processing

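Between the positions of the pools, 0 members were called under every alternative run. Of all genes tested, 0.453% were called, against 1.2% with DESeq2, 0.0309% with a replicate block, 0% without the pools holding 10% or more of the oocyte list's level in oocytes, and 0.0512% to 0.353% when a replicate was left out. Pools shared numbers in the labels. The deviations of same-numbered pools correlated by 0.007 to 0.189, all positive, and 3 of 7 neighboring pools matched their own number best. These values do not settle whether the numbers are pairs. The main test did not use the numbers, and the block is given as the alternative. The block changed no call of a member, but moved the log2 fold change of Col1a2 from −2.83 to −9.78 (adjusted p = 0.0503 in edgeR) and of Col6a1 from −2.59 to −5.09, and turned that of Col4a5 to −0.94. With it, 3 members had an unadjusted p under 0.05. Fold changes also turned without the stroma-rich pools for Lamb1 (0.32) and Lama3 (0.58), and without the oocyte-rich pools for Lamb2 (0.0188). Between bulk samples and pools, 0 members were called, against 1 with no filter (Col11a2) and 1 without the stroma-rich pools (Col5a2), and 0 when any bulk sample was left out. Of all genes, 0.101% were called, against 0.562% with DESeq2, 2.31% with no filter, 0.877% over all genes of the table, 0% against non-neighboring pools alone, 0.201% against neighboring pools alone, 1.03% without the stroma-rich pools and 0% to 0.469% when a bulk sample was left out. Log2 fold changes of bulk samples that turned were, with DESeq2, Col25a1 (0.61) and, with no filter, Col9a2 (0.0011). Against neighboring pools alone they were Col6a1 (0.015), Lama3 (0.28), Lamc3 (0.43), Col9a2 (0.48), Col4a1 (0.33), Col4a2 (0.72) and Col4a4 (0.53). Against non-neighboring pools alone they were Lama5 (−0.99), Col20a1 (−0.13), Col5a2 (−1.71), Col4a6 (−0.82), Col6a3 (−0.44), Col13a1 (0.069), Col25a1 (0.84) and Col22a1 (−0.28). Without the stroma-rich pools they were Col6a1 (0.22), Col1a1 (2.92), Lamb1 (0.052), Lama2 (0.063), Col6a2 (2.04), Lama3 (0.77), Col3a1 (1.38), Col5a1 (1.92), Lamc3 (2.32), Col1a2 (3.75), Col4a1 (3.00), Col4a2 (3.19), Col25a1 (0.93) and Col4a4 (1.19). When a bulk sample was left out, the range crossed 0 for Col18a1 (−0.30 to 1.57), Col9a2 (−0.33 to 0.19), Col6a3 (−0.18 to 0.98), Col4a4 (−1.31 to 0.19) and Col22a1 (−0.38 to 0.40).

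Of the sums, type IV collagens and laminins moved with TMM-scaled library sizes from 398 to 578 RPM in fresh mESCs, from 361 to 572 RPM in LCM mESCs, from 575 to 858 RPM in bulk samples and from 1155 to 1656 RPM in serial sections. Fibrillar and type VI collagens moved from 395 to 608 RPM in bulk samples, from 207 to 298 RPM in serial sections and from 108.8 to 156 RPM in the 2 set-aside non-neighboring cells (90 RPM when thinned to 50000 reads, which left out 3 libraries). The neighboring cells above 100 RPM of type I and III collagens (2) were 17 at 10 RPM and 0 at 1000 RPM. The non-neighboring ones (36) were 16 at 1000 RPM and 8 without cells holding 100 RPM of the stroma list. Without those cells, 4 members in place of 7 were higher in non-neighboring cells in every method. Of the mean levels of the 40 named members in each group, 589 moved by more than their SD and 771 did not with a pseudocount of 0.1 RPM, against 727 and 633 with 10 RPM. With a minimum of 5 reads, 603 shares of libraries with a member left their binomial interval and 757 did not. The settings that left out pools or cells were chosen after seeing the data, and the causes of these changes were not tested.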
